A study of Homo sapiens with 40 samples.

Results

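BT474R is a derivative of BT474, a breast cancer cell line with an amplified ERBB2 (HER2) gene and luminal features, and it was grown out in trastuzumab, the antibody against HER2, as 1 resistant clone. RNA of BT474R treated with 50 ng/mL EGF for 12 h was compared with RNA of BT474R given water as vehicle for 12 h, over every gene in the count table. The comparison holds 4 of the 40 libraries of the series, 2 per group, and they were picked by their line, treatment and time alone, not by any measured value. Cells of both groups had been starved of serum beforehand, and both received fresh starvation medium together with the ligand or the water. Libraries set beside them were BT474R after 10 ng/mL HRG (heregulin) for 12 h, BT474R after EGF or vehicle for 1 h and 24 h, and parental BT474 after EGF or vehicle for 12 h, again 2 per group. The treatments were run in duplicate. No source says whether a number links libraries of different groups or whether the duplicates were independent cultures. The p-values therefore measure only the spread between duplicate libraries, which may be technical. That spread was pooled over all 20 BT474R libraries, and over all 40 for the comparison of lines.

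EGF binds EGFR, which pairs with itself or with HER2 and passes the signal through the RAS and MAP kinase cascade, the PI3K cascade and STAT factors. HRG binds HER3 and HER4, which also pair with HER2. Interferon genes respond to another route. Type I interferons assemble a complex with STAT2 and IRF9 that binds the interferon-stimulated response element (ISRE). Interferon gamma makes pairs of STAT factors that bind the gamma-activated site (GAS). IRF1, itself a GAS-driven gene, binds sequences of the ISRE kind. Products of these target genes block viral replication and load peptides onto MHC class I.

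The vehicle libraries held 22697167 and 30024539 counts and the EGF libraries 26819476 and 22667790. Values are CPM, that is, counts scaled to a common library total after the TMM method. A level of 3 counts, taken as the detection limit of a library, came to between 0.0992 and 0.135 CPM in these 4 libraries. Replicates differed by somewhat more than counting noise, with a median chi-square per gene of 0.845 between the vehicle libraries and 0.676 between the EGF libraries against 0.455 for counting alone. Of 10 markers of HER2-amplified luminal epithelium, all were measured, and their summed level was 15690 and 15810 CPM with vehicle and 18070 and 18130 CPM with EGF. ERBB2 made up most of this sum. KRT18, KRT8, GRB7 and KRT19 of that list were called higher with EGF, and GATA3 and ESR1 lower. Markers of leukocytes summed to 2.24 and 2.15 CPM with vehicle and 3.6 and 3.47 CPM with EGF, with CD3D, CD3E and CD14 at 0 in all 4 libraries, and CD68, the marker of that list that rose, at 2.99 and 2.89 CPM with EGF. PTPRC, the defining leukocyte marker, was too low to be tested. Fibroblast markers summed to 187 and 176 CPM with vehicle and 194 and 186 CPM with EGF, nearly all of it from COL1A1, with DCN, LUM and PDGFRB at 0. Endothelial markers, mostly VWF, with TEK and CD34 at 0, summed to 10.6 and 10.5 CPM with vehicle and 12.4 and 16.1 CPM with EGF. Markers of basal or myoepithelial cells summed to 2.59 and 2.78 CPM with vehicle and 8.54 and 7.35 CPM with EGF, and KRT17, KRT5 and TP63 of that list rose with EGF.

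The promoters of 4 genes that rose are printed first, because the largest changes at 12 h fell in genes of the interferon pathway. Each sequence is in the direction of its gene and runs from 180 bases before the annotated start to 31 bases before it, from RefSeq on GRCh38.p14, with matches to the ISRE core (GAAANNGAAA) or the GAS core (TTCNNNGAA) on either strand in capitals. IRF1 lies at chr5:132490804-132490953 on the minus strand, with a GAS core 124 bases before the start. GBP1 lies at chr1:89065239-89065388 on the minus strand, with an ISRE core in reverse 127 bases before the start. IFIT3 lies at chr10:89327817-89327966 on the plus strand, with ISRE cores in reverse 156 and 122 bases before the start. BST2 lies at chr19:17405661-17405810 on the minus strand, with ISRE cores 130 and 124 bases before the start that overlap each other and a GAS core at 136, and a further GAS core at 58.
IRF1: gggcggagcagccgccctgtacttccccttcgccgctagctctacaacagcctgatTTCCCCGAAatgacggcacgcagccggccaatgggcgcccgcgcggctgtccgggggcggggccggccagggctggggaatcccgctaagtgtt
GBP1: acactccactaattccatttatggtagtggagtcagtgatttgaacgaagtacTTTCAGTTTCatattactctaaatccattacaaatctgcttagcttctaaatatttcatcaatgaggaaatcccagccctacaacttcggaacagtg
IFIT3: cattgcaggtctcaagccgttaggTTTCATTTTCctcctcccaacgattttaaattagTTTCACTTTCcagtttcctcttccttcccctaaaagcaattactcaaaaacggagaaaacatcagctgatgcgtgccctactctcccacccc
BST2: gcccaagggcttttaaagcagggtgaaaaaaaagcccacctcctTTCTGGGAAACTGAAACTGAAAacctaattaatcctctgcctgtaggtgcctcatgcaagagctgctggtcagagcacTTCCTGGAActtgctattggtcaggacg

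Over windows from 250 bases before to 50 after the start, 3.65% of all 27305 RefSeq promoters held an ISRE core and 7.88% a GAS core. Promoter sequences were at hand for 32 of the 47 tested interferon-stimulated effector genes, and 23 of them (71.9%) held an ISRE core and 8 (25%) a GAS core. Among the effectors that rose with EGF, 15 of 23 (65.2%) held an ISRE core, and among those not called, 8 of 9 (88.9%) did. Over all genes, 43 of 1167 promoters of genes that rose (3.68%) held an ISRE core, against 11 of 913 (1.2%) for genes that fell and 3.03% of 13029 for genes not called. GAS cores were found in 5.66%, 4.82% and 6.75% of these promoters. A match is a description of the letters in the window, not a bound site.

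After 12 h of EGF, 2912 of 24287 genes tested (12.0%) differed from vehicle at an adjusted p under 0.05 in edgeR's quasi-likelihood test, with 1665 higher (6.86%) and 1247 lower (5.13%). Changes were mostly small, with a median absolute log2 fold change of 0.42 among the called genes, and 344 rose and 184 fell by at least 2-fold. All 2912 called genes had both EGF libraries on one side of both vehicle libraries, which was also the case for 55.24% of all genes tested. In bulk RNA, fewer cells that express a gene and less RNA of it per cell cannot be told apart. Leaving out 1 library lowered the count to 1452 without EGF replicate 1, 1612 without EGF replicate 2, 1542 without vehicle replicate 1 and 1893 without vehicle replicate 2, and no gene called in both settings changed direction.

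**Figure D1:**
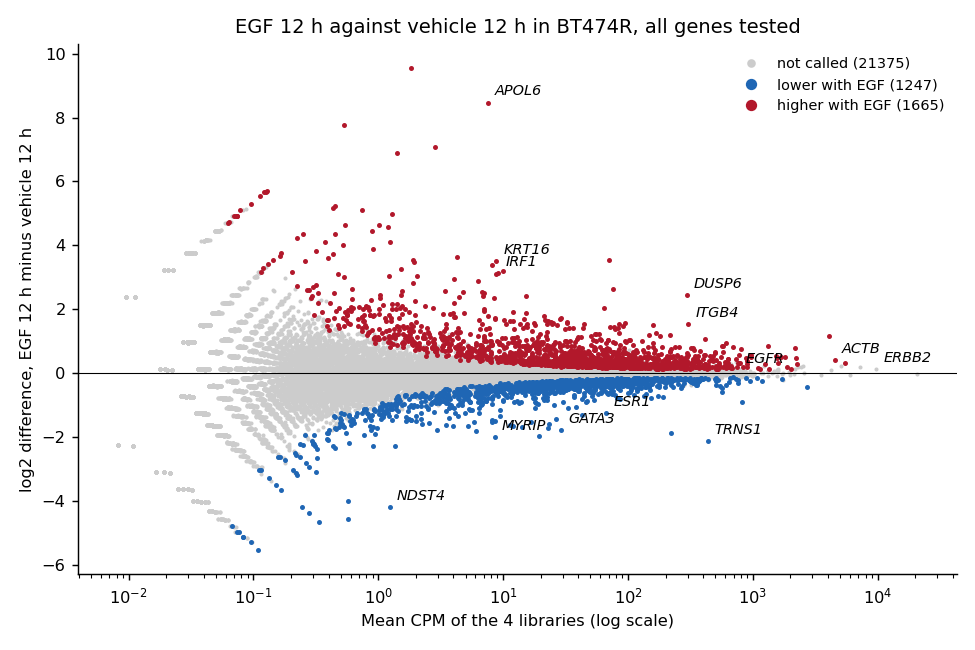
Mean CPM of the 4 libraries (log scale) against the log2 difference of EGF 12 h minus vehicle 12 h for every gene tested in BT474R, with the 1665 genes called higher in red, the 1247 called lower in blue and the rest in grey. The fitted difference of genes with 3 counts or fewer in each vehicle library, such as APOL6, depends on the prior count. Most called genes lie close to 0, with the interferon genes, KRT16 and DUSP6 far above it and NDST4, MYRIP and GATA3 far below.

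Among the transcription factors and kinases of the interferon pathway, 4 of 19 tested rose, with IRF1, IRF9 and IRF7 among them, and 1 fell (JAK1). IRF1 stood at 1.42 and 2.25 CPM with vehicle and 19.1 and 13.6 CPM with EGF, the lower EGF library above both vehicle libraries by a wide margin (log2 fold change 3.13 ± 0.23, adjusted p = 4.67e-09). IRF9, the DNA-binding partner of STAT2, was at 4.01 and 4.04 CPM with vehicle and 13.1 and 13.1 CPM with EGF (log2 fold change 1.70 ± 0.12, adjusted p = 1.14e-09). Its row is uncertain because other rows of the table repeat its name. IRF7, an inducer of type I interferon genes with such repeated rows as well, was at 2.59 and 2.15 CPM with vehicle and 4.6 and 3.83 CPM with EGF (log2 fold change 0.85 ± 0.21, adjusted p = 0.0102). Its call was lost without EGF replicate 1 (adjusted p = 0.147) and without vehicle replicate 2 (adjusted p = 0.112). STAT2 did not pass, at 55.1 and 54.6 CPM with vehicle and 60.8 and 56.5 CPM with EGF (log2 fold change 0.10 ± 0.08, adjusted p = 0.543). JAK1, a receptor-bound kinase, was at 146 and 153 CPM with vehicle and 135 and 134 CPM with EGF (log2 fold change -0.15 ± 0.05, adjusted p = 0.033), a small fall whose call was lost whichever of the 4 libraries was left out. Called genes of this list numbered 3 without EGF replicate 1, 4 without EGF replicate 2, 4 without vehicle replicate 1 and 3 without vehicle replicate 2.

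Interferon-stimulated effectors had the largest median change of the pathway lists: 30 of 47 tested rose and none fell, with a median log2 fold change of 1.23 against -0.01 over all genes tested. Of these 30, 27 were called whichever library was left out. GBP1, a GTPase that attacks pathogen vacuoles, had 0 and 0 counts with vehicle and 108 and 71 counts with EGF, which is at least 32.1-fold higher when vehicle is set at the limit of 3 counts per library (adjusted p = 9.05e-09). APOL6, an apolipoprotein L family member, had 1 and 1 counts with vehicle and 417 and 309 counts with EGF, a ratio of 402 with a 95% counting interval from 111 to 3324 (adjusted p = 3.91e-11). IFIT3, which strengthens the binding of viral RNA by IFIT1, had 1 and 1 counts with vehicle and 159 and 116 counts with EGF, a ratio of 152 with a 95% counting interval from 41.7 to 1263 (adjusted p = 8.56e-10). In each of these genes the vehicle libraries were at or next to 0 and the EGF libraries far above them.

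OAS2, a synthase of the oligoadenylates that switch on RNase L, had 1 and 3 counts with vehicle and 71 and 51 counts with EGF, a ratio of 33.8 with a 95% counting interval from 12.8 to 126 (adjusted p = 2.85e-07). BST2 (tetherin), which holds budding virus on the cell surface, was at 0 and 0.132 CPM with vehicle and 2.18 and 1.76 CPM with EGF (log2 fold change 4.64 ± 0.68, adjusted p = 4.01e-05). Vehicle replicate 1 had no count of BST2, so the size of this rise is uncertain. APOL1, with 0 and 0 counts with vehicle and 32 and 20 counts with EGF, was at least 9.31-fold higher with EGF (adjusted p = 2.86e-05). WARS1, the tryptophan tRNA synthetase that interferon gamma induces, was already well expressed with vehicle and rose by less, from 60.5 and 66 CPM to 133 and 119.7 CPM (log2 fold change 1.00 ± 0.12, adjusted p = 2.41e-06). IFIT2, another IFIT family member, was at 0.388 and 0.198 CPM with vehicle and 2.72 and 2.75 CPM with EGF (log2 fold change 3.26 ± 0.35, adjusted p = 6.28e-07). The remaining called effectors were IFI44, IFITM1, IFIT1, OAS1, OAS3, TRIM22, RSAD2, ISG15, IFIT5, HERC6, PARP14, IFI6, GBP3, CMPK2, ISG20, IFIH1, GBP2, SP110, DTX3L, PARP9, SP100 and DDX58. Outside the list, BATF2, a basic leucine zipper factor induced by interferon gamma, had 1 and 0 counts with vehicle and 83 and 53 counts with EGF, a ratio of 150.5 with a 95% counting interval from 26.6 to 5988 (adjusted p = 9.12e-08). PARP10, a mono-ADP-ribosyltransferase, was at 0.604 and 0.562 CPM with vehicle and 2.68 and 2.3 CPM with EGF (log2 fold change 2.10 ± 0.26, adjusted p = 5.27e-06).

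**Figure D2:**
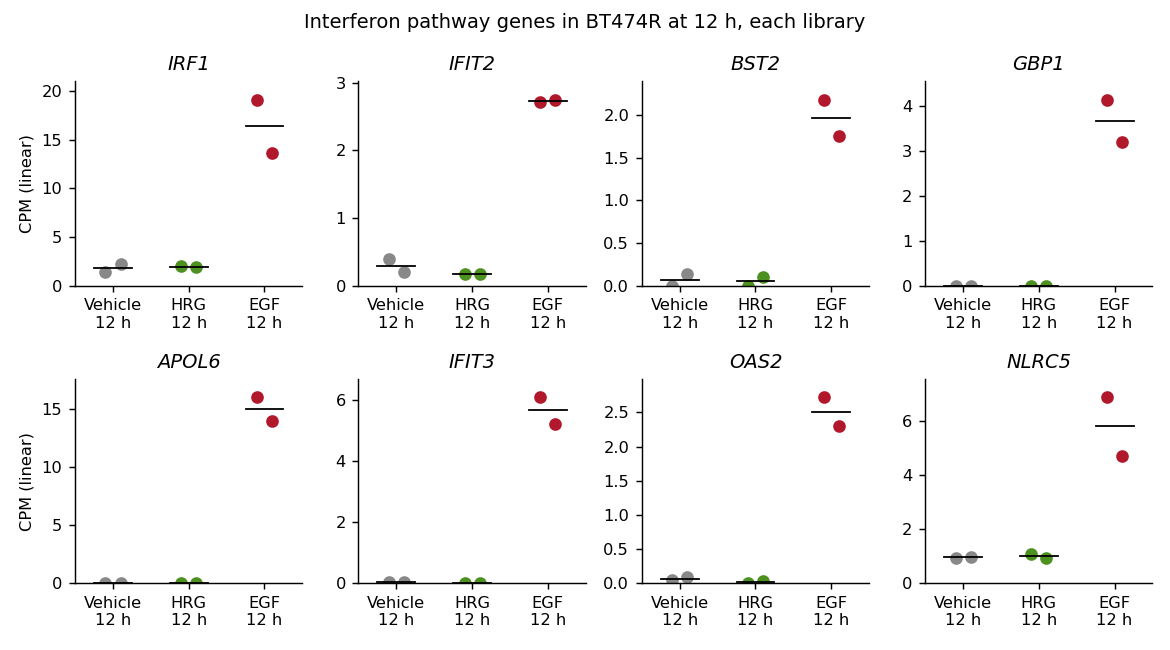
CPM (linear scale) of 8 interferon pathway genes in each BT474R library at 12 h, with vehicle in grey, HRG in green, EGF in red and a line at the mean of 2 libraries. In all 8 genes both EGF libraries lie above every vehicle and HRG library, which overlap or sit close together.

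RNA of the interferons themselves was scarcely counted. Of 22 interferon genes in the list, 19 were at 0 in these 4 libraries and none reached the test. Their summed level was 0.0431 and 0.0331 CPM with vehicle and 0 and 0.0451 CPM with EGF, each a single count. IFNB1 had that count in vehicle replicate 1 and IFNG had none, which leaves up to 3 counts per library undetected. Among 6 interferon receptor chains, IFNGR1 was at 17 and 19.2 CPM with vehicle and 23.3 and 24.7 CPM with EGF (log2 fold change 0.40 ± 0.08, adjusted p = 0.00206). That call was lost without vehicle replicate 1 (adjusted p = 0.0559). IFNGR2, which has repeated rows, was at 16.3 and 16 CPM with vehicle and 18.6 and 21 CPM with EGF (log2 fold change 0.29 ± 0.09, adjusted p = 0.0425), with the call lost whichever library was left out. IFNAR1 was at 85.3 and 84.4 CPM with vehicle and 91.3 and 89.2 CPM with EGF (log2 fold change 0.09 ± 0.06, adjusted p = 0.409).

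SOCS proteins bind JAKs and receptors and damp cytokine signalling. Of 8 SOCS and CISH genes, none rose and SOCS2 fell, from 8.71 and 9.26 CPM to 3.56 and 4.01 CPM (log2 fold change -1.25 ± 0.14, adjusted p = 1.7e-06). The share called, 12.5%, was near the 11.99% of all genes tested. SOCS1, a direct interferon target, was at 0.862 and 0.661 CPM with vehicle and 1.34 and 0.857 CPM with EGF (log2 fold change 0.56 ± 0.35, adjusted p = 0.364). SOCS3 was at 2.15 and 1.09 CPM with vehicle and 1.3 and 1.08 CPM with EGF (log2 fold change -0.39 ± 0.29, adjusted p = 0.458), where the libraries overlapped.

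In antigen processing and MHC class I, 7 of 18 genes rose and 1 fell. NLRC5, the transactivator of MHC class I genes, was at 0.948 and 0.992 CPM with vehicle and 6.89 and 4.74 CPM with EGF (log2 fold change 2.58 ± 0.22, adjusted p = 2.59e-08), and neither vehicle library came near the EGF libraries. ERAP2, a peptide-trimming aminopeptidase, was at 0.733 and 1.39 CPM with vehicle and 2.91 and 2.57 CPM with EGF (log2 fold change 1.33 ± 0.29, adjusted p = 0.00328). The call was lost without vehicle replicate 1 (adjusted p = 0.0693) or EGF replicate 1 (adjusted p = 0.0503). TAP1, a subunit of the peptide transporter, was at 2.46 and 3.01 CPM with vehicle and 6.43 and 5.46 CPM with EGF (log2 fold change 1.11 ± 0.16, adjusted p = 4.45e-05). HLA-E was at 1.12 and 0.992 CPM with vehicle and 2.41 and 2.17 CPM with EGF (log2 fold change 1.12 ± 0.22, adjusted p = 0.000976). HLA-B was at 5.56 and 4.23 CPM with vehicle and 10.1 and 7.44 CPM with EGF (log2 fold change 0.86 ± 0.17, adjusted p = 0.0012). B2M, the light chain of MHC class I, was at 17.9 and 19.2 CPM with vehicle and 24.2 and 23.1 CPM with EGF (log2 fold change 0.35 ± 0.08, adjusted p = 0.00648). The call of HLA-B was lost without EGF replicate 1 (adjusted p = 0.0739), and that of B2M without EGF replicate 1 (adjusted p = 0.0876) or vehicle replicate 1 (adjusted p = 0.0802). TAP1, HLA-E, HLA-B, HLA-C and B2M all have rows that repeat their names, so their plain rows may hold only a part of their reads. CALR, a chaperone of the peptide-loading complex and of the endoplasmic reticulum at large, fell from 832 and 851 CPM to 676 and 683 CPM (log2 fold change -0.31 ± 0.04, adjusted p = 3.11e-05). Called genes numbered 5 without EGF replicate 1, 7 without EGF replicate 2, 5 without vehicle replicate 1 and 8 without vehicle replicate 2.

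Of 19 NF-kB subunits, inhibitors and targets, 6 rose and 1 fell, with a median log2 fold change of 0.01. The share called was 36.84%, against 11.99% of all genes tested. ICAM1, an adhesion molecule that NF-kB drives, was at 0.647 and 0.695 CPM with vehicle and 3.48 and 2.98 CPM with EGF (log2 fold change 2.26 ± 0.27, adjusted p = 3.22e-06). TNFAIP8 was at 6.16 and 5.16 CPM with vehicle and 11 and 9.97 CPM with EGF (log2 fold change 0.90 ± 0.12, adjusted p = 1.52e-05). TNFAIP3, the inhibitory A20 protein, was at 0.69 and 0.926 CPM with vehicle and 1.92 and 1.76 CPM with EGF (log2 fold change 1.16 ± 0.31, adjusted p = 0.015). That call was lost without EGF replicate 1 (adjusted p = 0.116), EGF replicate 2 (adjusted p = 0.0541) or vehicle replicate 1 (adjusted p = 0.132). REL, a subunit, was at 25.4 and 24.2 CPM with vehicle and 19.9 and 19.3 CPM with EGF (log2 fold change -0.34 ± 0.08, adjusted p = 0.01), and kept its call only where vehicle replicate 2 was the library left out. The list's called genes numbered 5 without EGF replicate 1, 4 without EGF replicate 2, 3 without vehicle replicate 1 and 7 without vehicle replicate 2. Of 10 chemokine and cytokine genes tested, CXCL8, CX3CL1 and CXCR4 rose. CX3CL1, a chemokine anchored in the membrane, was at 49 and 52.5 CPM with vehicle and 103 and 99.4 CPM with EGF (log2 fold change 0.99 ± 0.08, adjusted p = 6.44e-09). CXCR4, the receptor for CXCL12, was at 47.5 and 53.8 CPM with vehicle and 80.0 and 74.7 CPM with EGF (log2 fold change 0.61 ± 0.07, adjusted p = 3.59e-06). CXCL8 had 1 and 0 counts with vehicle and 22 and 19 counts with EGF, a ratio of 45.4 with a 95% counting interval from 7.7 to 1835 (adjusted p = 0.000372). CXCL1, CXCL2, CXCL3, CCL2, CCL20, IL1B and IL6 had no count in the 4 libraries.

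EGF's own receptor did not change measurably at the RNA level: EGFR was at 679.6 and 794 CPM with vehicle and 806 and 758 CPM with EGF (log2 fold change 0.09 ± 0.09, adjusted p = 0.649). ERBB2 was at 9395 and 9155 CPM with vehicle and 9956 and 10180 CPM with EGF (log2 fold change 0.12 ± 0.05, adjusted p = 0.102). ERBB3 was at 344 and 354 CPM with vehicle and 309 and 320.3 CPM with EGF (log2 fold change -0.15 ± 0.06, adjusted p = 0.111). Both passed the threshold when only the 4 libraries were fitted (adjusted p = 0.000733 and adjusted p = 0.000349). ERBB4, an HRG receptor, fell from 12.2 and 12.2 CPM to 4.52 and 3.88 CPM (log2 fold change -1.53 ± 0.12, adjusted p = 1.19e-08). The EGFR ligand gene AREG rose from 0.345 and 0.562 CPM to 3.56 and 3.07 CPM (log2 fold change 2.82 ± 0.32, adjusted p = 1.7e-06). HBEGF, with 3 and 3 counts with vehicle and 29 and 17 counts with EGF, had a ratio of 8.48 with a 95% counting interval from 3.62 to 24.3 (adjusted p = 0.00093). BTC, another EGFR ligand, was at 0.991 and 0.827 CPM with vehicle and 1.65 and 1.53 CPM with EGF (log2 fold change 0.82 ± 0.25, adjusted p = 0.0368). The EGF gene itself was at 4.35 and 4.04 CPM with vehicle and 3.03 and 2.89 CPM with EGF (log2 fold change -0.50 ± 0.15, adjusted p = 0.0302). Both calls were lost whichever library was left out. In all, 3 of the 13 ERBB receptor and ligand genes tested rose and 2 fell, 38.46% called beside 11.99% of all genes tested. EREG and NRG1 had no count. The called ones numbered 3 without EGF replicate 1, 3 without EGF replicate 2, 3 without vehicle replicate 1 and 4 without vehicle replicate 2.

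Of 23 feedback inhibitors of the receptor and of MAP kinases, 10 were higher and 3 lower. DUSP6, a phosphatase of ERK, was at 91 and 93.2 CPM with vehicle and 509 and 491 CPM with EGF (log2 fold change 2.44 ± 0.11, adjusted p = 1.26e-12). SPRY4, a Sprouty inhibitor of RAS signalling, was at 49.3 and 45.8 CPM with vehicle and 139 and 142 CPM with EGF (log2 fold change 1.56 ± 0.10, adjusted p = 3.56e-10). ERRFI1, which binds and blocks the EGFR kinase, was at 25.8 and 24.3 CPM with vehicle and 58.4 and 51.6 CPM with EGF (log2 fold change 1.14 ± 0.09, adjusted p = 5.44e-09). For these 3 genes the replicates of each group differed by little beside the gap between groups. DUSP8, DUSP5, SPRY1, DUSP4, SPRED2, DUSP10 and SPRED1 were also called higher. LRIG2 was lower, at 37.5 and 34.2 CPM with vehicle and 28.9 and 29.1 CPM with EGF (log2 fold change -0.30 ± 0.07, adjusted p = 0.00467), as were SPRED3 and DUSP14, and each of these 3 calls was lost without at least 1 library. Not all of the 13 calls in this list held when 1 library was left out.

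Immediate early and ETS genes, which EGF switches on within an hour in many cells, were up in 16 and down in 1 of 34, with a median log2 fold change of 0.59. ETV1, an ETS factor, was at 2.03 and 2.08 CPM with vehicle and 8.35 and 6.95 CPM with EGF (log2 fold change 1.90 ± 0.18, adjusted p = 1.29e-07). FOS, a subunit of AP-1, was at 0.991 and 1.82 CPM with vehicle and 6.24 and 4.19 CPM with EGF (log2 fold change 1.86 ± 0.34, adjusted p = 0.000551), and its EGF libraries were further apart than those of ETV1. ID1, an inhibitor of basic helix-loop-helix factors, was at 3.02 and 3.11 CPM with vehicle and 10 and 9.38 CPM with EGF (log2 fold change 1.66 ± 0.16, adjusted p = 1.45e-07). EGR1, the classical early response gene, was at 6.25 and 5.49 CPM with vehicle and 7.85 and 5.41 CPM with EGF (log2 fold change 0.20 ± 0.21, adjusted p = 0.628), with overlapping libraries. FOSL1, at 0.215 and 0.0331 CPM with vehicle and 0.536 and 0.541 CPM with EGF, was called (log2 fold change 2.21 ± 0.66, adjusted p = 0.0266) but lost the call without EGF replicate 1, EGF replicate 2 or vehicle replicate 2. KLF4, the gene that fell, was at 29.3 and 31.6 CPM with vehicle and 24.7 and 25.2 CPM with EGF (log2 fold change -0.29 ± 0.08, adjusted p = 0.0148) and lost its call without the same libraries.

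Steroid receptors and luminal regulators moved downwards, with 7 of 17 lower and 4 higher. GATA3, a factor that sets luminal identity, was at 48.3 and 41.1 CPM with vehicle and 12.2 and 13.8 CPM with EGF (log2 fold change -1.78 ± 0.14, adjusted p = 1.31e-08), with no overlap between the groups. ESR1, the estrogen receptor, was at 99.1 and 88.4 CPM with vehicle and 38 and 40.7 CPM with EGF (log2 fold change -1.25 ± 0.10, adjusted p = 1.24e-08). PGR, the progesterone receptor and an ESR1 target, was at 28.7 and 26.1 CPM with vehicle and 15.5 and 15.3 CPM with EGF (log2 fold change -0.83 ± 0.12, adjusted p = 5.59e-05). PRLR, the prolactin receptor, was at 701 and 672 CPM with vehicle and 446 and 466 CPM with EGF (log2 fold change -0.59 ± 0.07, adjusted p = 7.18e-06). In GATA3, ESR1, PGR and PRLR both EGF libraries lay below both vehicle libraries, and the calls held whichever library was left out. GREB1 also fell, and XBP1, a secretory pathway factor, was at 1823 and 1831 CPM with vehicle and 1591 and 1604 CPM with EGF (log2 fold change -0.19 ± 0.05, adjusted p = 0.0143), the call lost whichever library was left out. AGR2, a disulfide isomerase of secretory epithelium, went the other way, from 241 and 252 CPM to 425 and 419 CPM (log2 fold change 0.78 ± 0.07, adjusted p = 1.07e-07). ELF3, TFF1 and KLK2 were called higher, but each lost the call without EGF replicate 1 or without vehicle replicate 1. The 11 calls in this list became 7 without EGF replicate 1, 9 without EGF replicate 2, 7 without vehicle replicate 1 and 9 without vehicle replicate 2.

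Mucins, keratins, gasdermins and S100 proteins rose broadly: 24 of 41 tested were higher and 1 lower, with a median log2 fold change of 0.74. Several of these 25 calls did not hold when 1 library was left out. KRT16, a keratin of stressed and wounded epithelium, was at 1.21 and 1.59 CPM with vehicle and 17 and 15.5 CPM with EGF (log2 fold change 3.51 ± 0.20, adjusted p = 1.13e-10). KRT17, of the same kind and one of the basal markers, was at 0.172 and 0.0992 CPM with vehicle and 2.41 and 2.3 CPM with EGF (log2 fold change 4.12 ± 0.53, adjusted p = 8.62e-06). Vehicle replicate 2 lay at its detection limit of 0.0992 CPM, so the size of the KRT17 rise is uncertain. GSDMA, a pore-forming gasdermin of skin, was at 0.215 and 0.397 CPM with vehicle and 4.06 and 3.07 CPM with EGF (log2 fold change 3.48 ± 0.34, adjusted p = 2.25e-07). MUC2, a secreted gel-forming mucin, was at 1.34 and 1.62 CPM with vehicle and 12.9 and 9.2 CPM with EGF (log2 fold change 2.89 ± 0.27, adjusted p = 1.19e-07). PADI3, an enzyme that citrullinates keratins and filaggrin, outside the list, was at 0.172 and 0.397 CPM with vehicle and 3.68 and 3.29 CPM with EGF (log2 fold change 3.53 ± 0.57, adjusted p = 0.000156). The rows of MUC2 and PADI3 are repeated. The keratin genes of simple epithelium, KRT8, KRT18, KRT19 and KRT7, were among the 24, next to KRT5, KRT15, KRT80, KRT81, AQP3 and S100A2, S100A4, S100A6, S100A9, S100A10, S100A11, S100A14, S100A16 and S100P. The basal marker sum rose from 2.59 and 2.78 CPM with vehicle to 8.54 and 7.35 CPM with EGF. KRT17 and KRT5 count in that sum as well as among the 24, so the sum is not a separate measure. Whether basal cells had a part in the change of these keratins was not tested. GSDMB was lower, at 177 and 158 CPM with vehicle and 132 and 122 CPM with EGF (log2 fold change -0.39 ± 0.11, adjusted p = 0.0235). The call was lost without EGF replicate 1, EGF replicate 2 or vehicle replicate 1.

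Laminins and integrins are what epithelial cells use to hold on to the basement membrane. Of 29 adhesion and extracellular proteolysis genes, 11 rose and 3 fell. ITGB4, a subunit of a laminin receptor, was at 159.6 and 154 CPM with vehicle and 467 and 436 CPM with EGF (log2 fold change 1.53 ± 0.06, adjusted p = 3.92e-13). ITGB6, a subunit of the integrin that activates TGF-beta, was at 37.2 and 44.5 CPM with vehicle and 117 and 108 CPM with EGF (log2 fold change 1.45 ± 0.09, adjusted p = 4.88e-10). ITGA5, of the fibronectin receptor, was at 4.7 and 4.99 CPM with vehicle and 15.9 and 14.9 CPM with EGF (log2 fold change 1.67 ± 0.20, adjusted p = 5.21e-06). TWIST1, a mesenchymal factor, was lower at 2.89 and 3.8 CPM with vehicle and 1.38 and 1.85 CPM with EGF (log2 fold change -1.08 ± 0.22, adjusted p = 0.00185), as were CDH2 and ITGAV. All 3 calls were lost without EGF replicate 1, for TWIST1 also without vehicle replicate 2 and for CDH2 and ITGAV without vehicle replicate 1. Of 20 actin cytoskeleton genes, 15 rose and none fell, with a median log2 fold change of 0.33. Some of these 15 calls did not hold when 1 library was left out. ACTB was at 3814 and 3924 CPM with vehicle and 5152 and 5208 CPM with EGF (log2 fold change 0.42 ± 0.04, adjusted p = 9.99e-08). ACTG1 was at 1845 and 1871 CPM with vehicle and 2573 and 2580 CPM with EGF (log2 fold change 0.47 ± 0.04, adjusted p = 3.93e-08). FLNA, an actin crosslinker, was at 1492 and 1473 CPM with vehicle and 2166 and 2074 CPM with EGF (log2 fold change 0.52 ± 0.04, adjusted p = 1.8e-08). MYH9, nonmuscle myosin, was at 1363 and 1402 CPM with vehicle and 2004 and 1933 CPM with EGF (log2 fold change 0.51 ± 0.05, adjusted p = 2.56e-07). These differences were small but larger than the gaps between replicates. TPM4, EZR and TPM1 followed at 364 and 362 CPM, 292 and 289 CPM and 217 and 222 CPM with EGF, against 237 and 247 CPM, 201 and 197 CPM and 149 and 142 CPM with vehicle.

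Heparan sulfate proteoglycans and their enzymes split, 5 up and 5 down of 30. SULF2, an extracellular sulfatase that trims heparan sulfate, was at 43.5 and 43.5 CPM with vehicle and 125 and 126 CPM with EGF (log2 fold change 1.53 ± 0.08, adjusted p = 4.99e-11). SDC1, a syndecan, was at 427 and 445 CPM with vehicle and 587 and 584 CPM with EGF (log2 fold change 0.43 ± 0.06, adjusted p = 1.66e-05). NDST4, an N-deacetylase and N-sulfotransferase, had the largest fall among the genes named, from 2.11 and 2.58 CPM to 0.153 and 0.0902 CPM (log2 fold change -4.20 ± 0.61, adjusted p = 3.61e-05). EGF replicate 2 lay below its detection limit of 0.135 CPM, so the size and rank of this fall are uncertain. HS3ST3B1 and HS6ST3, both sulfotransferases, fell from 3.45 and 2.81 CPM to 1.34 and 1.26 CPM (log2 fold change -1.25 ± 0.22, adjusted p = 0.000368) and from 32.6 and 31.2 CPM to 22.7 and 23.5 CPM (log2 fold change -0.47 ± 0.08, adjusted p = 0.000191). Proteoglycan and enzyme genes called numbered 6 without EGF replicate 1, 7 without EGF replicate 2, 6 without vehicle replicate 1 and 7 without vehicle replicate 2. EXT1, a polymerase of the heparan sulfate chain, was called higher but lost the call whichever library was left out. GPC4, a glypican that was also called higher, lost it without EGF replicate 1 or vehicle replicate 1, and GLCE, an epimerase called lower, without vehicle replicate 2.

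**Figure D3:**
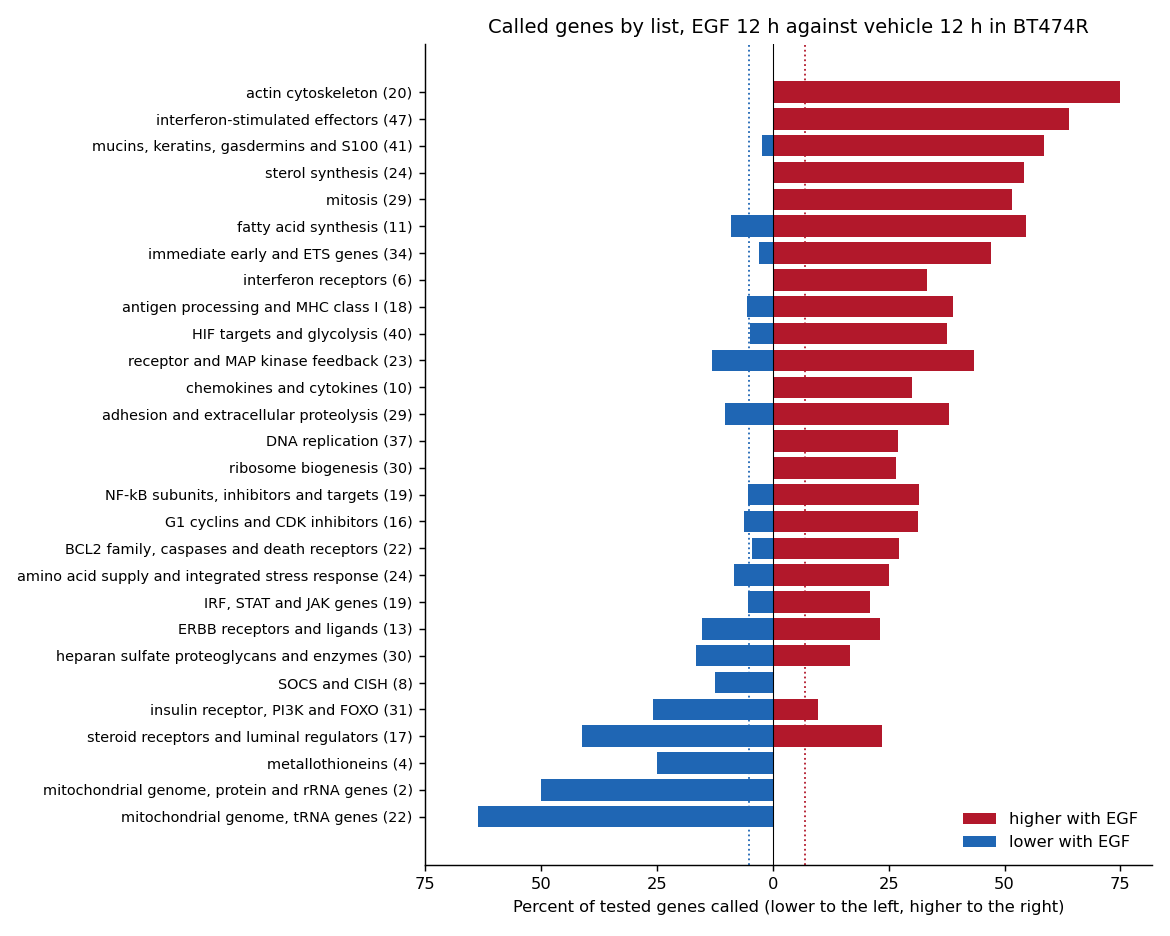
Percent of tested genes called higher (red, to the right) or lower (blue, to the left) with EGF at 12 h in BT474R for each gene list, with the number tested in parentheses and dotted lines at the share over all genes, 6.86% and 5.13%. Actin, interferon effector and keratin lists reach furthest to the right, and the mitochondrial tRNA and steroid receptor lists furthest to the left among lists of more than 5 genes.

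Sterol synthesis genes, the targets of SREBF2, were higher in 13 of 24 and lower in none. FDPS, farnesyl diphosphate synthase, was at 246 and 259 CPM with vehicle and 429 and 409.5 CPM with EGF (log2 fold change 0.73 ± 0.11, adjusted p = 6.79e-05). Its call held without any 1 library. HMGCS1, the first committed enzyme of the pathway, was at 1397 and 1784 CPM with vehicle and 2838 and 2640 CPM with EGF (log2 fold change 0.78 ± 0.20, adjusted p = 0.0116), with vehicle replicate 2 nearer to the EGF libraries. Its call was lost without EGF replicate 1 (adjusted p = 0.0938) or vehicle replicate 1 (adjusted p = 0.155). Called sterol genes numbered 2 without EGF replicate 1, 8 without EGF replicate 2, 3 without vehicle replicate 1 and 13 without vehicle replicate 2. In fatty acid synthesis, 6 of 11 were higher and 1 lower, and the called genes numbered 0 without EGF replicate 1, 0 without EGF replicate 2, 0 without vehicle replicate 1 and 2 without vehicle replicate 2. FASN, fatty acid synthase, was at 4754 and 4868 CPM with vehicle and 6230 and 5909 CPM with EGF (log2 fold change 0.34 ± 0.10, adjusted p = 0.0261), a call that was lost whichever library was left out.

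HIF targets and glycolytic genes were higher in 15 of 40 and lower in 2, and their summed level was 10640 and 12850 CPM with vehicle and 15130 and 14180 CPM with EGF, so the vehicle libraries lay as far from each other as vehicle replicate 2 lay from the EGF libraries. Called genes numbered 7 without EGF replicate 1, 10 without EGF replicate 2, 5 without vehicle replicate 1 and 20 without vehicle replicate 2. HIF1A itself was at 254 and 266 CPM with vehicle and 335 and 343 CPM with EGF (log2 fold change 0.38 ± 0.05, adjusted p = 9.27e-06). ENO2, an enolase, was at 15.5 and 19.7 CPM with vehicle and 37 and 29.7 CPM with EGF (log2 fold change 0.92 ± 0.15, adjusted p = 0.000132), both called in every setting. PDK4, a kinase that closes the pyruvate dehydrogenase complex, was at 4.91 and 4.5 CPM with vehicle and 10.5 and 11.7 CPM with EGF (log2 fold change 1.24 ± 0.14, adjusted p = 2.11e-06). CA9, a carbonic anhydrase and HIF target, was at 5.47 and 10 CPM with vehicle and 22.9 and 19.3 CPM with EGF (log2 fold change 1.42 ± 0.33, adjusted p = 0.00626). The call was lost without EGF replicate 1 (adjusted p = 0.077) or vehicle replicate 1 (adjusted p = 0.106). ENO1, at 836 and 1055 CPM with vehicle and 1775 and 1640 CPM with EGF (log2 fold change 0.85 ± 0.18, adjusted p = 0.00299), lost its call without vehicle replicate 1 (adjusted p = 0.0671).

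Among amino acid supply and integrated stress response genes, 6 of 24 rose and 2 fell, and the called genes numbered 3 without EGF replicate 1, 3 without EGF replicate 2, 4 without vehicle replicate 1 and 4 without vehicle replicate 2. GDF15, a stress-induced cytokine, was at 8.15 and 13.6 CPM with vehicle and 140.5 and 117 CPM with EGF (log2 fold change 3.54 ± 0.34, adjusted p = 1.7e-07). TRIB3, a pseudokinase induced by ATF4, was at 101 and 106 CPM with vehicle and 168 and 157 CPM with EGF (log2 fold change 0.65 ± 0.10, adjusted p = 0.000104). ATF4 was at 303 and 311 CPM with vehicle and 363 and 351 CPM with EGF (log2 fold change 0.22 ± 0.07, adjusted p = 0.0345). PHGDH, of serine synthesis, was at 176 and 178 CPM with vehicle and 160.1 and 157 CPM with EGF (log2 fold change -0.16 ± 0.05, adjusted p = 0.0484), and both calls, the rise of ATF4 and the fall of PHGDH, were lost whichever library was left out. HSPA5, the chaperone BiP, was lower at 770.5 and 782 CPM with vehicle and 686 and 672 CPM with EGF (log2 fold change -0.19 ± 0.04, adjusted p = 0.00343), a call lost without EGF replicate 2 or vehicle replicate 2.

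The number of called growth and division genes depended on single libraries. Of 30 ribosome biogenesis genes, 8 rose and none fell, and the called genes numbered 3 without EGF replicate 1, 2 without EGF replicate 2, 3 without vehicle replicate 1 and 4 without vehicle replicate 2. DDX21, a nucleolar helicase, was at 165 and 169 CPM with vehicle and 225 and 229 CPM with EGF (log2 fold change 0.44 ± 0.05, adjusted p = 8.25e-07). Of 37 DNA replication genes, 10 rose and none fell, with a median log2 fold change of 0.18, and this number was 0 without EGF replicate 1, 2 without EGF replicate 2, 2 without vehicle replicate 1 and 10 without vehicle replicate 2. MCM7, of the replicative helicase, was at 247 and 251 CPM with vehicle and 323 and 311 CPM with EGF (log2 fold change 0.35 ± 0.08, adjusted p = 0.0042), a call lost without EGF replicate 1 (adjusted p = 0.0607). Mitosis genes were up in 15 of 29 and down in none, with counts of 7 without EGF replicate 1, 4 without EGF replicate 2, 4 without vehicle replicate 1 and 13 without vehicle replicate 2. UBE2C, a ubiquitin-conjugating enzyme of the anaphase-promoting complex, was at 28.1 and 29.6 CPM with vehicle and 40.9 and 42.9 CPM with EGF (log2 fold change 0.54 ± 0.07, adjusted p = 1.66e-05). CCNB1, mitotic cyclin B1, was at 51 and 52 CPM with vehicle and 65.5 and 71 CPM with EGF (log2 fold change 0.41 ± 0.06, adjusted p = 4.54e-05). Of 16 G1 cyclin and CDK inhibitor genes, 5 rose and 1 fell. CCND1, cyclin D1, was at 268 and 315 CPM with vehicle and 481 and 456 CPM with EGF (log2 fold change 0.69 ± 0.12, adjusted p = 0.000355). CDKN1A, the inhibitor p21, was at 10.6 and 12.7 CPM with vehicle and 28.9 and 26.2 CPM with EGF (log2 fold change 1.24 ± 0.26, adjusted p = 0.00217). RBL2, a pocket protein of quiescent cells, was lower at 84 and 81.3 CPM with vehicle and 68.9 and 69.1 CPM with EGF (log2 fold change -0.26 ± 0.05, adjusted p = 0.00169). Calls in this G1 list numbered 3 without EGF replicate 1, 3 without EGF replicate 2, 5 without vehicle replicate 1 and 4 without vehicle replicate 2, while those of DDX21, UBE2C, CCNB1, CCND1, CDKN1A and RBL2 held whichever library was left out.

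Death receptor and BCL2 family genes were up in 6 and down in 1 of 22. TNFRSF10A and TNFRSF10B, the TRAIL receptors, were at 17.8 and 17.7 CPM with vehicle and 32.4 and 32.5 CPM with EGF (log2 fold change 0.87 ± 0.12, adjusted p = 1.34e-05) and at 30.8 and 29.4 CPM with vehicle and 45.7 and 42.9 CPM with EGF (log2 fold change 0.56 ± 0.07, adjusted p = 4.71e-06). PMAIP1 (NOXA), a BH3-only protein, was at 4.66 and 5.22 CPM with vehicle and 8.73 and 7.76 CPM with EGF (log2 fold change 0.74 ± 0.14, adjusted p = 0.000706). BMF, another BH3-only protein, was lower at 74.1 and 75.6 CPM with vehicle and 57.3 and 57.3 CPM with EGF (log2 fold change -0.39 ± 0.07, adjusted p = 0.000607).

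In the insulin receptor, PI3K and FOXO list, 3 of 31 rose and 8 fell, and these calls numbered 8 without EGF replicate 1, 7 without EGF replicate 2, 7 without vehicle replicate 1 and 9 without vehicle replicate 2. The adaptor genes IRS2 and IRS1 rose, from 6.59 and 7.31 CPM to 22.6 and 22.6 CPM (log2 fold change 1.70 ± 0.11, adjusted p = 5.33e-10) for the former and from 12.3 and 12.6 CPM to 25.4 and 24.6 CPM (log2 fold change 1.01 ± 0.10, adjusted p = 1.89e-07) for the latter. Among binding proteins of insulin-like growth factors, IGFBP4 was at 74.1 and 74.4 CPM with vehicle and 98.8 and 92.3 CPM with EGF (log2 fold change 0.36 ± 0.06, adjusted p = 0.000106). IGFBP3 and IGFBP5 fell, from 4.14 and 3.41 CPM to 1.38 and 1.17 CPM (log2 fold change -1.54 ± 0.19, adjusted p = 4.48e-06) and from 1019 and 1116 CPM to 628 and 521 CPM (log2 fold change -0.89 ± 0.11, adjusted p = 3.51e-06). KLHL24, a FOXO target, was at 78.8 and 87.3 CPM with vehicle and 65 and 61.5 CPM with EGF (log2 fold change -0.39 ± 0.07, adjusted p = 0.00065). PIK3R1, the regulatory subunit of PI3K, was at 80.9 and 80.3 CPM with vehicle and 61 and 62.7 CPM with EGF (log2 fold change -0.38 ± 0.08, adjusted p = 0.00328), a call lost without EGF replicate 1 (adjusted p = 0.0518). Of 4 metallothionein genes tested, MT1F was lower, at 7.5 and 10.3 CPM with vehicle and 5.63 and 3.16 CPM with EGF (log2 fold change -1.01 ± 0.28, adjusted p = 0.0191), and lost the call without EGF replicate 2 or vehicle replicate 2. That 1 call made up 25% of the metallothioneins tested, beside 11.99% of all genes tested.

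Other genes with the largest changes belonged to no list. SHISAL1, a membrane protein gene, had 2 and 3 counts with vehicle and 62 and 50 counts with EGF, a ratio of 24.8 with a 95% counting interval from 10.3 to 77.8 (adjusted p = 9.63e-07). H19, an imprinted noncoding RNA with repeated rows, showed one of the largest gains in CPM, at 2223 and 2771 CPM with vehicle and 5776 and 5429 CPM with EGF (log2 fold change 1.17 ± 0.14, adjusted p = 2.41e-06). MYRIP, a myosin adaptor of secretory granules, fell from 14 and 13.4 CPM to 3.33 and 3.52 CPM (log2 fold change -2.0 ± 0.14, adjusted p = 9.46e-10). ADCY2, an adenylyl cyclase, was at 10.2 and 8.76 CPM with vehicle and 2.68 and 2.71 CPM with EGF (log2 fold change -1.81 ± 0.14, adjusted p = 5.27e-09). SLA, an adaptor that damps receptor signalling in lymphocytes, was at 25.4 and 36.1 CPM with vehicle and 8.12 and 7.71 CPM with EGF (log2 fold change -1.97 ± 0.23, adjusted p = 3.38e-06). SOX2, a stem cell factor, fell from 39 and 31.3 CPM to 10.5 and 11 CPM (log2 fold change -1.70 ± 0.16, adjusted p = 8.96e-08). FSTL5, IGSF21 and STON1 were at 0.421 and 0.496 CPM, 1.3 and 1.35 CPM and 2.45 and 2.62 CPM with EGF, against 2.2 and 2.28 CPM, 4.7 and 4.43 CPM and 8.54 and 7.34 CPM with vehicle. Among abundant RNAs, ELAPOR1, an endosome and lysosome protein gene, was lower at 661 and 651 CPM with vehicle and 471 and 481 CPM with EGF (log2 fold change -0.46 ± 0.04, adjusted p = 1.43e-07).

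Several of the largest falls were RNAs without a long poly(A) tail, in libraries made with an mRNA kit. TRNS1, a mitochondrial serine tRNA, was at 706 and 705 CPM with vehicle and 187 and 138 CPM with EGF (log2 fold change -2.12 ± 0.50, adjusted p = 0.00651). MIR12136, a microRNA gene, was at 340.4 and 351 CPM with vehicle and 108 and 80.7 CPM with EGF (log2 fold change -1.87 ± 0.46, adjusted p = 0.00796). Its row moved with that of TRNS1 over the BT474R libraries, at 97.3 and 238 CPM at T0 and 75.3 and 206 CPM with vehicle for 1 h. Whether the rows of MIR12136 and TRNS1 count the same reads was not tested. RN7SK, which restrains transcription elongation, was at 19.4 and 23.4 CPM with vehicle and 8.08 and 5.32 CPM with EGF (log2 fold change -1.67 ± 0.36, adjusted p = 0.00281). Calls were lost without EGF replicate 2 for TRNS1 (adjusted p = 0.1), MIR12136 (adjusted p = 0.11) and RN7SK (adjusted p = 0.0626), and for MIR12136 also without EGF replicate 1 (adjusted p = 0.0508). Called mitochondrial tRNAs numbered 6 without EGF replicate 1, 12 without EGF replicate 2, 12 without vehicle replicate 1 and 6 without vehicle replicate 2. Of 22 mitochondrial tRNAs, 14 were lower and none higher, with a summed level of 2021 and 2121 CPM with vehicle and 1181 and 1234 CPM with EGF. RNR1, a mitochondrial rRNA, was at 2940 and 3264 CPM with vehicle and 2266 and 2353 CPM with EGF (log2 fold change -0.43 ± 0.05, adjusted p = 6.01e-06). RNR2, the more abundant mitochondrial rRNA, was not called. Its libraries overlapped, at 21550 and 20230 CPM with vehicle and 19540 and 21980 CPM with EGF. In 3 of the 8 other BT474R groups the duplicates differed by over 2-fold for TRNS1, which was at 181 and 516 CPM at T0 and at 135 and 395 CPM with vehicle for 1 h, with a ratio of 4.88 between duplicates with HRG for 1 h. In the other 5 groups the ratio lay between 1.02 and 1.51. Of 56 histone genes tested, whose RNAs mostly lack a tail, none were higher and 4 lower (7.14%), a share near the 5.13% over all genes, and the median log2 fold change was -0.42. How much tail selection in single libraries contributed to these falls was not tested.

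**Figure D4:**
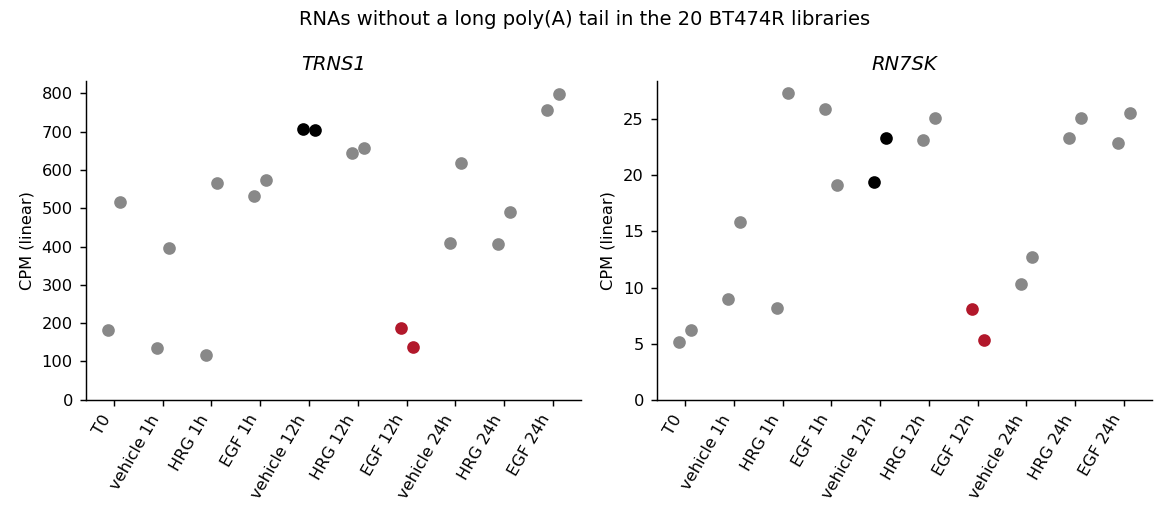
CPM (linear scale) of TRNS1 and RN7SK in each of the 20 BT474R libraries, 2 points per group, with vehicle 12 h in black, EGF 12 h in red and the other groups in grey. Both EGF 12 h libraries lie below the vehicle 12 h libraries, but the T0 libraries reach as low for RN7SK, and T0 and 1 h libraries for TRNS1.

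The EGF and HRG groups at 12 h were compared directly, which leaves out the vehicle libraries that both effects share. EGF differed from HRG in 344 genes (1.42%), of which 277 were higher with EGF (1.14%) and 67 lower (0.276%). Leaving out 1 library brought the count to 104 without EGF replicate 1, 198 without EGF replicate 2, 116 without HRG replicate 1 and 150 without HRG replicate 2. Among the gene lists, interferon-stimulated effectors had the highest count, with 31 of 47 higher with EGF and none lower, and a median log2 difference of 1.13. IRF1 was at 2.0 and 1.92 CPM with HRG, next to its vehicle values, and differed from EGF (log2 difference 3.07 ± 0.23, adjusted p = 3.13e-08). GBP1 and IFIT3 had no count in either HRG library. STAT2 was at 44.3 and 41.3 CPM with HRG, below both the EGF and the vehicle libraries, and differed from EGF (log2 difference 0.46 ± 0.08, adjusted p = 0.00441). Of 19 IRF, STAT and JAK genes, 5 were higher with EGF than with HRG.

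Some genes outside the interferon lists stood between vehicle and EGF after HRG. DUSP6 was at 279.5 and 300.1 CPM with HRG, between vehicle and EGF (log2 difference 0.79 ± 0.10, adjusted p = 5.56e-05), and KRT16 at 6.32 and 7.09 CPM (log2 difference 1.27 ± 0.16, adjusted p = 5.24e-05). ITGB4 was at 282 and 296 CPM (log2 difference 0.64 ± 0.06, adjusted p = 7.71e-07), MYRIP at 7.79 and 6.56 CPM (log2 difference -1.07 ± 0.14, adjusted p = 0.000139), and GATA3 at 22.9 and 20.9 CPM (log2 difference -0.76 ± 0.15, adjusted p = 0.00802), all likewise between the vehicle and the EGF libraries. ESR1, at 48.1 and 49.4 CPM, lay near the EGF libraries (log2 difference -0.31 ± 0.10, adjusted p = 0.226), a difference that did not pass. No gene of the sterol, fatty acid, HIF, ribosome, DNA replication or mitosis lists differed between the ligands, beside 1.42% of all genes tested. With so few genes called, this absence says little about these lists. Over the whole table, 2197 genes had an unadjusted p under 0.05. For the mitochondrial tRNAs, 11 of 22 were lower with EGF than with HRG. The HRG libraries stood near the vehicle libraries for TRNS1, at 644 and 658 CPM (log2 difference -2.0 ± 0.50, adjusted p = 0.0475). They did so for RN7SK too, at 23.2 and 25.1 CPM (log2 difference -1.83 ± 0.35, adjusted p = 0.00573). Neither the TRNS1 nor the RN7SK call was kept in every alternative setting.

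Compared with the effect at 1 h, that at 12 h differed in 1075 genes (4.43%), 652 of them with a higher value at 12 h (2.68%) and 423 with a lower one (1.74%), and the count lay between 618 and 750 with 1 of the 8 libraries left out, lowest without EGF 12 h replicate 1. Early response genes differed between the times in both directions. EGR1 was at 22 and 17.7 CPM with vehicle and 260.1 and 278 CPM with EGF at 1 h, a log2 fold change of 3.77 ± 0.14 far above that at 12 h (log2 difference -3.57 ± 0.25, adjusted p = 1.42e-08). EGR2 was at 15.1 and 17.8 CPM with EGF at 1 h and at 0.0766 and 0.18 CPM at 12 h (adjusted p = 0.0137), a difference whose call was lost without either vehicle library of 12 h. Of 34 immediate early and ETS genes, 23 were higher than vehicle at 1 h, where 0.416% of all genes tested were called higher and 0.0412% lower. In this list the effect at 12 h was larger in 6 and smaller in 10. IRF1 had already risen at 1 h, from 1.97 and 3.55 CPM to 14.8 and 11 CPM, and the effects at the 2 times were not shown to differ (log2 difference 0.94 ± 0.34, adjusted p = 0.139). None of the 47 effectors was called at 1 h in edgeR, with an unadjusted p under 0.05 in 1, and the effect at 12 h was larger in 19 and smaller in none.

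Slower changes set the remaining genes apart from 1 h. The effect was higher at 12 h for KRT16 (log2 difference 3.08 ± 0.34, adjusted p = 5.64e-06), ITGB4 (log2 difference 1.54 ± 0.09, adjusted p = 4.39e-10) and SULF2 (log2 difference 1.56 ± 0.12, adjusted p = 4.66e-08). It was lower for NDST4 (log2 difference -4.12 ± 0.71, adjusted p = 0.000739), MYRIP (log2 difference -2.06 ± 0.18, adjusted p = 2.13e-07), GATA3 (log2 difference -1.64 ± 0.19, adjusted p = 1.23e-05) and ESR1 (log2 difference -1.27 ± 0.14, adjusted p = 4.78e-06). None of these 7 genes was called at 1 h, with log2 fold changes there from -0.15 for GATA3 to 0.43 for KRT16. DUSP6, at 116 and 112 CPM with vehicle and 221 and 224 CPM with EGF at 1 h, also had a larger effect at 12 h (log2 difference 1.48 ± 0.14, adjusted p = 1.25e-06). Mitosis genes differed in 17 of 29, all with the higher value at 12 h, beside 4.43% of all genes tested (2.68% higher at 12 h). Their median effect was -0.16 at 1 h and 0.22 at 12 h.

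Between 12 h and 24 h the EGF effect differed in 45 genes (0.185%), 26 with a higher value at 24 h (0.107%) and 19 with a lower one (0.0782%). This count was the least stable: it was 12 without vehicle 12 h replicate 2, 13 without EGF 12 h replicate 2 and 122 without vehicle 24 h replicate 2. WARS1 had the smallest adjusted p, at 33.1 and 41.4 CPM with vehicle and 338 and 299 CPM with EGF at 24 h (log2 difference 2.10 ± 0.17, adjusted p = 6.1e-07). HLA-B, with repeated rows, was at 22.9 and 20.6 CPM with EGF at 24 h against 3.89 and 4.47 CPM (log2 difference 1.52 ± 0.24, adjusted p = 0.00465), with the call lost without vehicle 12 h replicate 1. B2M was at 39.3 and 34.4 CPM against 16.4 and 16.7 CPM (log2 difference 0.80 ± 0.12, adjusted p = 0.00286). For IRF1, at 15.2 and 13.8 CPM with EGF at 24 h, the effects at 12 h and 24 h were not shown to differ (log2 difference -0.18 ± 0.37, adjusted p = 0.948). ADCY2 fell further (log2 difference -1.54 ± 0.27, adjusted p = 0.0114), a call lost without replicate 2 of EGF or vehicle at 12 h or either EGF library of 24 h. TRIM29, a keratinocyte factor that was at 4.09 and 4.0 CPM with vehicle and 10 and 11 CPM with EGF at 12 h, was at 3.63 and 3.73 CPM with vehicle and 3.45 and 3.53 CPM with EGF at 24 h (log2 difference -1.45 ± 0.23, adjusted p = 0.00474).

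**Figure D5:**
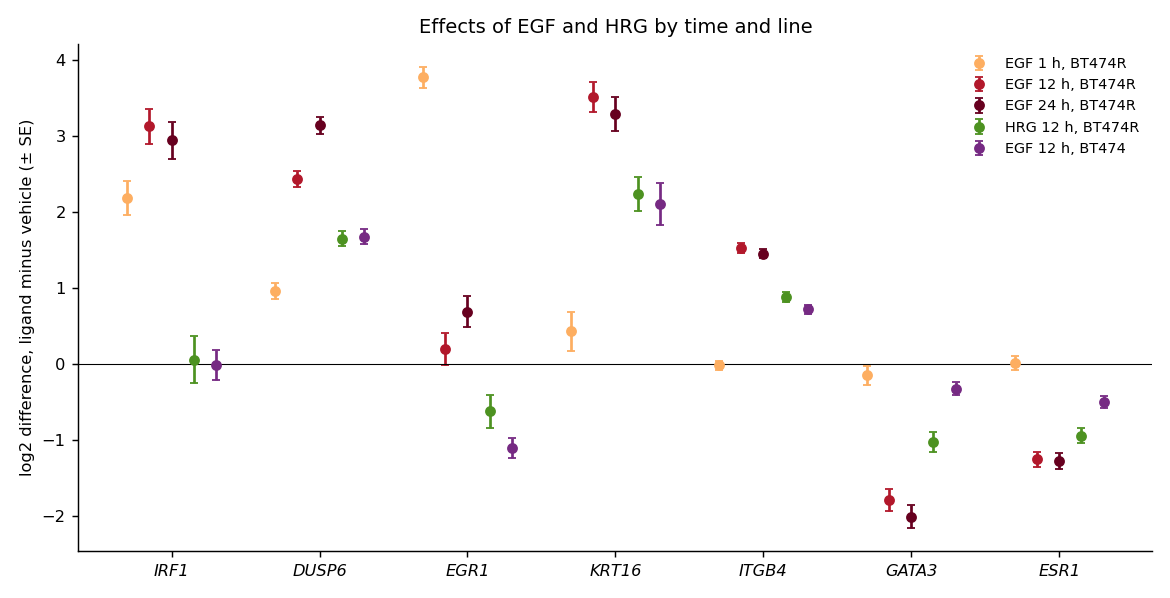
Log2 difference from the vehicle of the same time and line, with its standard error, for BT474R after EGF (1 h, 12 h or 24 h) or HRG (12 h) and for BT474 after EGF (12 h), with 2 libraries per group. Of the groups drawn, IRF1 is raised in BT474R after EGF at each time, EGR1 is highest at 1 h, and GATA3 and ESR1 lie lowest with EGF at 12 h and 24 h in BT474R.

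In parental BT474 the same EGF treatment gave a different response in 484 of 24641 genes (1.96%), tested as an interaction over all 40 libraries, with 229 higher (0.929%) and 255 lower (1.03%) in BT474R. With 1 library left out, the count lay between 258, without BT474R EGF replicate 1, and 324. IRF1 in BT474 was at 5.24 and 5.11 CPM with vehicle and 5.37 and 4.94 CPM with EGF (log2 difference 3.13 ± 0.29, adjusted p = 2.16e-09). It did not pass the test within BT474. STAT2 was lower with EGF in BT474, 52.4 and 54.3 CPM against 76.3 and 78 CPM (log2 difference 0.63 ± 0.10, adjusted p = 9.61e-05). Of 51 interferon-stimulated effectors tested in both lines, 26 had a higher EGF effect in BT474R and none a lower one, and in BT474 itself 1 rose and 9 fell. Over all genes, 8.64% rose and 4.91% fell with EGF in BT474 in this fit. APOL6 was at 1.34 and 0.799 CPM with vehicle and 0.528 and 0.768 CPM with EGF in BT474 (adjusted p = 3.55e-11), and PARP10 at 1.21 and 1.28 CPM and 0.528 and 0.384 CPM (log2 difference 3.52 ± 0.41, adjusted p = 3.21e-07).

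GATA3 was far higher in BT474, at 546 and 544 CPM with vehicle, and fell by less there, to 438 and 434 CPM (log2 difference -1.46 ± 0.14, adjusted p = 1.28e-08). ESR1, at 116 and 112 CPM and 77.2 and 84.1 CPM, also fell by less in BT474 (log2 difference -0.75 ± 0.12, adjusted p = 0.000114). For PGR, at 626 and 613 CPM and 343 and 362 CPM, the lines were not shown to differ (log2 difference -0.01 ± 0.13, adjusted p = 1). ITGB4 rose by more in BT474R (log2 difference 0.80 ± 0.08, adjusted p = 6.42e-09), as did DUSP6 (log2 difference 0.76 ± 0.13, adjusted p = 0.000213), IRS1 (log2 difference 0.67 ± 0.12, adjusted p = 0.000354) and ERRFI1 (log2 difference 0.59 ± 0.11, adjusted p = 0.000721). FOS fell in BT474, 1.89 and 1.92 CPM against 4.21 and 3.32 CPM, and rose in BT474R (log2 difference 2.85 ± 0.42, adjusted p = 2.73e-05). Of 37 DNA replication genes, 37 rose in BT474 in this fit and 14 in BT474R, beside 8.64% and 8.4% of all genes (6.46% of all genes fell in BT474R), and the effect was smaller in BT474R in 10. The BT474R count was 10 in the fit of that line alone and fell to 0 there without EGF replicate 1. Of 105 sterol, fatty acid, HIF and ribosome genes tested, 2 (1.9%) differed between the lines, close to the 1.96% over all genes.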

How the data were processed

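Poly(A) RNA of serum-starved BT474 and BT474R cells was made into libraries and sequenced in pairs. The authors trimmed reads (Trim Galore 0.6.6), aligned them to GRCh38.p13 and deposited raw counts per gene from featureCounts for 44584 names in 40 libraries. The annotation release, strand setting and treatment of multi-mapped reads are not given in the sources used here. Of the names, 5078 are numbered copies of another row, so counts of repeated genes are uncertain.

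Counts were tested with edgeR 4.0.16 in R 4.3.3 (TMM scaling, quasi-likelihood, Benjamini-Hochberg adjustment, adjusted p under 0.05). Genes needed at least 1 count in 50% of the libraries of a fit. The 20 BT474R libraries (10 groups of 2) were fitted together, and all 40 for the comparison of lines. Contrasts with HRG, other times and BT474 reuse the EGF 12 h libraries, so they are not independent of one another. Errors after ± are standard errors. The detection floor was 3 counts per library, and intervals and floors cover counting error only. Alternatives were DESeq2 1.42.0, its size factors, other filters, other sets of libraries, summed copies, a replicate block and leaving out each library. The method was tested on simulated counts.

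Gene lists and key members were chosen with earlier results of these data known. Named genes were those called with both EGF libraries on one side of both vehicle libraries and a mean of at least 1 CPM (up to 12 per direction by fold, up to 8 by CPM), called members of each list (all when 6 or fewer, otherwise the 4 largest per direction), key members such as EGFR and ESR1, and up to 5 genes per direction in each further contrast. CD68, and genes given in a further contrast outside this rule (such as ITGB4, MYRIP and B2M), were chosen after their values were seen. Genes named without values complete the lists. Some members of these lists are not reported here.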

Additional observations from a re-analysis of the deposited data

Results flagged for a closer look

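EGF effects that differed between times or lines, by a test of the difference itself in edgeR, are given as log2 differences for the genes named in each contrast. Between 24 h and 12 h the effect was higher at 24 h for RN7SK (log2 difference 2.75 ± 0.49, adjusted p = 0.0146), CHD5 (log2 difference 2.24 ± 0.46, adjusted p = 0.0431), WARS1 (log2 difference 2.10 ± 0.17, adjusted p = 6.1e-07), SLCO5A1 (log2 difference 1.86 ± 0.26, adjusted p = 0.0021) and HLA-B (log2 difference 1.52 ± 0.24, adjusted p = 0.00465). It was lower at 24 h for CYP1A1 (log2 difference -1.77 ± 0.36, adjusted p = 0.0431), ADCY2 (log2 difference -1.54 ± 0.27, adjusted p = 0.0114), TRIM29 (log2 difference -1.45 ± 0.23, adjusted p = 0.00474), ENTPD8 (log2 difference -1.33 ± 0.25, adjusted p = 0.0298) and TSPEAR (log2 difference -1.28 ± 0.15, adjusted p = 0.000197). The calls of WARS1, TRIM29, SLCO5A1 and TSPEAR held whichever library was left out, and the other 6 did not. CYP1A1, a xenobiotic-metabolising enzyme, was at 2.63 and 3.11 CPM with vehicle and 11.6 and 10.5 CPM with EGF at 12 h and at 7.49 and 9.62 CPM with vehicle and 9.38 and 9.65 CPM with EGF at 24 h. TSPEAR was at 9.53 and 8.83 CPM with vehicle and 14.6 and 13.9 CPM with EGF at 12 h and at 10.1 and 8.52 CPM with vehicle and 5.84 and 6.12 CPM with EGF at 24 h.

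Between 12 h and 1 h the effect was higher at 12 h for PADI3 (log2 difference 3.85 ± 0.91, adjusted p = 0.0132), GSDMA (log2 difference 3.32 ± 0.75, adjusted p = 0.00948) and KRT16 (log2 difference 3.08 ± 0.34, adjusted p = 5.64e-06), and lower for NDST4 (log2 difference -4.12 ± 0.71, adjusted p = 0.000739), EGR1 (log2 difference -3.57 ± 0.25, adjusted p = 1.42e-08), TRNS1 (log2 difference -3.17 ± 0.70, adjusted p = 0.00808) and MIR12136 (log2 difference -2.85 ± 0.63, adjusted p = 0.00883). For APOL6 (adjusted p = 0.000216), IFIT3 (adjusted p = 0.0335) and EGR2 (adjusted p = 0.0137) a group stood at 3 counts or fewer per library, so no difference is printed. KRT16, NDST4, EGR1 and APOL6 kept their calls whichever library was left out, and the other 6 did not.

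Between the lines the EGF effect at 12 h was higher in BT474R for PARP10 (log2 difference 3.52 ± 0.41, adjusted p = 3.21e-07) and IFIT2 (log2 difference 3.13 ± 0.51, adjusted p = 0.000139) and lower for RHBDL3 (log2 difference -1.61 ± 0.44, adjusted p = 0.0412), IGSF21 (log2 difference -1.54 ± 0.27, adjusted p = 0.000408), CA2 (log2 difference -1.47 ± 0.37, adjusted p = 0.0208) and GATA3 (log2 difference -1.46 ± 0.14, adjusted p = 1.28e-08). APOL6 (adjusted p = 3.55e-11), IFIT3 (adjusted p = 3.88e-06), SLC25A48 (adjusted p = 0.00486) and HS3ST5 (adjusted p = 0.0268) had a group at 3 counts or fewer per library. CA2, a carbonic anhydrase, was at 1.55 and 1.85 CPM with vehicle and 0.843 and 0.812 CPM with EGF in BT474R and at 1.73 and 0.999 CPM with vehicle and 1.89 and 1.82 CPM with EGF in BT474. The calls of CA2, HS3ST5, RHBDL3 and SLC25A48 were lost without at least 1 library.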

How the results depend on the processing

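No call turned its direction under any alternative. In each comparison, counts of called genes moved by over 1.5 times in some, though not all, of the settings given here. The count for 24 h against 12 h also did so with a replicate block within each time point. For EGF against vehicle the count was 5176 when only the compared libraries were fitted and 1452 to 1893 with 1 library left out. For EGF against HRG it was 628 without the low-count filter and between 104 and 198 with 1 library left out. For 24 h against 12 h it was 147 in 1 fit of all 40 libraries, 91 by DESeq2, 261 with no filter, 96 with only the compared libraries and 12 to 122 with 1 library left out. For 12 h against 1 h it was 2752 with only the compared libraries and 618 to 750 with 1 left out, and between the lines 1283 and 258 to 324. The cause was not tested. Of 161 named genes called with EGF, 96 stayed called in every setting and 148 in every setting that left out no library. ERBB2 and ERBB3 were called in 1 fit of all 40 libraries (adjusted p = 0.0276 and adjusted p = 0.036). Genes at 3 counts or fewer per vehicle library give only bounds or wide intervals.

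Whether replicate numbers pair the libraries is not known. Deviations of same-numbered replicates correlated at -0.000335 (vehicle and EGF), 0.101 (vehicle and HRG) and -0.0641 (EGF and HRG) over 14792 genes at 12 h in BT474R. Low values cannot show that pairing is absent, since a shared effect may be small. For vehicle and EGF the values were -0.086 at 1 h and 0.0273 at 24 h in BT474R, and -0.0387 over 14959 genes at 12 h in BT474. With a replicate block over all libraries the counts were 3072 for EGF against vehicle, 364 against HRG, 61 for 24 h against 12 h, 1161 for 12 h against 1 h and 544 between lines. With a replicate block within each time point they were 3382, 494, 130, 1449 and 649.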

Other observations

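Further genes that were at or near 0 with vehicle rose with EGF for 12 h in BT474R, and 4 of them are named here after their values were seen. ETV7, an ETS factor of the interferon response, had 1 and 1 counts with vehicle and 33 and 18 counts with EGF, a ratio of 28.2 with a 95% counting interval from 7.42 to 239 (adjusted p = 7.12e-05). SERPING1, the C1 inhibitor of complement, had 1 and 1 counts with vehicle and 25 and 17 counts with EGF, a ratio of 23.2 with a 95% counting interval from 6.05 to 198 (adjusted p = 9.97e-05). TCIM had 0 and 1 counts with vehicle and 26 and 17 counts with EGF, a ratio of 47.6 with a 95% counting interval from 8.1 to 1923 (adjusted p = 0.000437). A numbered copy row of PSMB9, an immunoproteasome subunit whose plain row was at 0 in all 4 libraries, had 2 and 1 counts with vehicle and 25 and 22 counts with EGF, a ratio of 17.3 with a 95% counting interval from 5.58 to 87.1 (adjusted p = 0.000132). In total 44 of the genes that rose had 3 counts or fewer in each vehicle library, and 14 of these had none.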
